A study of Homo sapiens with 3 samples.

Results

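The 10 genes described here serve the unfolded protein response of the endoplasmic reticulum (ER): the ER chaperones and folding enzymes *HSPA5*, *HSP90B1*, *CALR* and *PDIA4*, the co-chaperones *SDF2L1* and *DNAJB9*, the ER-associated degradation gene *HERPUD1*, the transcription factors *XBP1* and *ATF6*, and the sensor *ERN1*. They were chosen by name, and each was found under its Ensembl identifier among the 34908 genes of the count table. KYSE510, an established esophageal squamous cell carcinoma (ESCC) line, was transfected with 20 nmol/L of NC RNA (a control duplex that matches no human sequence), siDAZAP1-1 or siDAZAP1-2, small interfering RNAs (siRNAs) against *DAZAP1*, which encodes an RNA-binding splicing regulator. INTERFERin was the transfection reagent, total RNA was extracted with Trizol, and sequencing was on an Illumina HiSeq instrument. The time between transfection and RNA extraction is not given in the sources used here. Each of the 3 conditions had 1 library, so no difference below has a replicate check.

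When unfolded proteins build up in the ER, 3 sensors in its membrane respond. IRE1, encoded by *ERN1*, splices the mRNA of *XBP1*, ATF6 is cut in the Golgi to release a transcription factor, and PERK, encoded by *EIF2AK3*, slows translation and favours production of ATF4. The factors XBP1 and ATF6 raise transcription of ER chaperones and of genes for degradation, and a rise of *HSPA5* mRNA is a common readout of the response.

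ATF6 and XBP1 act on the ER stress response elements of promoters, so the promoters of the 10 genes were searched for these letters. ERSE was spelled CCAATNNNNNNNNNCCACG, ERSE-II ATTGGNCCACG and the XBP1-bound UPRE TGACGTG, and both strands were read from 250 bases before to 50 after each gene start in RefSeq (build GRCh38.p14). The first box of ERSE is itself a CCAAT box, and that of ERSE-II is its reverse complement. ERSE was present in 25 of 27305 genes (0.0916%), 4 of them among the 10. ERSE-II was present in 19 genes (0.0696%), 2 of them among the 10. The 10 were chosen by name as genes of this response, so these shares describe them and are not an independent test. The 7 stretches with an exact match, from 6 of the 10 promoters, follow. Each is written on the strand of its gene with 5 bases on either side, and capitals mark the fixed letters of the motif or of its reverse complement.
HSPA5 (chr9:125241386-125241414, minus strand): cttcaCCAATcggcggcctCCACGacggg
HSP90B1, first site (chr12:103930211-103930239, plus strand): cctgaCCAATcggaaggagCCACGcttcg
HSP90B1, second site (chr12:103930316-103930344, plus strand): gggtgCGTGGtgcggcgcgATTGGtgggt
CALR (chr19:12938379-12938407, plus strand): ccacgCGTGGtcgaccatcATTGGtcggt
XBP1 (chr22:28800598-28800626, minus strand): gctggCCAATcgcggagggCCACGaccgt
HERPUD1 (chr16:56932020-56932040, plus strand): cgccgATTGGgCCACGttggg
SDF2L1 (chr22:21642109-21642129, plus strand): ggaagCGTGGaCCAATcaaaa

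All 7 stretches lay before the RefSeq start. The ERSE of *XBP1* was the nearest, 52 to 34 bases before it, and that of *HSPA5* lay 66 to 48 bases before it. *HSP90B1* was the only one of the 10 with a pair of exact ERSE matches, in opposite orientations, 194 to 176 and 89 to 71 bases before the start. The ERSE of *CALR*, in reverse orientation, was the farthest at 225 to 207 bases. The ERSE-II of *HERPUD1* lay 117 to 107 bases before the start and that of *SDF2L1*, in reverse orientation, 188 to 178 bases. No exact ERSE or ERSE-II was found in the windows of *PDIA4*, *DNAJB9*, *ATF6* and *ERN1*, which says only that these letters were not there. UPRE letters were in 654 genes (2.40%) and in 0 of the 10, and a CCAAT box was in 10846 genes (39.7%) and in 9 of the 10, all but *ATF6*. With 1 mismatch allowed, ERSE was in 517 genes (1.89%), 6 of them among the 10, and ERSE-II was in 400 genes (1.46%), 3 of them among the 10.

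Library depth, as reads assigned to genes, was 14283061 for NC RNA, 14155792 for siDAZAP1-1 and 14167566 for siDAZAP1-2. A count of 0 allows up to 0.21 CPM (reads scaled to a common library size) in any of the 3 libraries. The targeted gene was examined first, as a check of the labels. *DAZAP1*, on chromosome 19, had 3170 reads with NC RNA, 1081 with siDAZAP1-1 and 1647 with siDAZAP1-2. After scaling for library size, 33.3% of its level in NC RNA was left with siDAZAP1-1 (log2 ratio -1.59, 95% interval -1.69 to -1.49) and 50.4% with siDAZAP1-2 (-0.99, -1.08 to -0.90). *DAZAP1* was thus lower in both libraries labelled as its knockdown, and lower with siDAZAP1-1 than with siDAZAP1-2. Ratios here are between scaled counts with a prior count of 2, and intervals are exact Clopper-Pearson intervals that cover counting error only. In bulk RNA, fewer cells with a transcript and less of it per cell cannot be told apart.

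The squamous identity of the line was checked on marker genes. The basal keratin *KRT5* had 9714, 10331 and 9672 reads with NC RNA, siDAZAP1-1 and siDAZAP1-2, and the squamous transcription factor *TP63* had 3997, 2820 and 3443. *KRT14* (957, 1282 and 935 reads) and *DSG3* (1671, 1752 and 1223) were also present in every library, and 6 of the 7 squamous markers passed the filter of 1 CPM on average. *SOX2* did not, with 5, 0 and 0 reads. Of the markers of other cell types, the hepatocyte gene *ALB* and the fibroblast gene *COL1A2* had 0 reads in each library and the leukocyte gene *PTPRC* had 0, 2 and 3. The collagen gene *COL1A1*, the most abundant of them, had 369, 495 and 591 reads. The summed level of these markers was 9.74, 12.6 and 15.8 TPM (a level per length, defined below), against 1041, 1029 and 947 TPM for the squamous markers, of which *KRT5* alone made up 586, 600 and 589 TPM. With siDAZAP1-1, 3 of the 6 tested squamous markers lay above NC RNA (median log2 ratio -0.03). With siDAZAP1-2, 0 of 6 did (median -0.38), and *KRT17* (1197, 1155 and 651 reads, log2 ratio -0.92) and *KRT6A* (323, 283 and 194 reads, -0.77) were past 1.5-fold lower. The part of these differences in the results below was not tested.

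By level per length, the 4 major chaperones and folding enzymes led the 10 genes, with regulators and co-chaperones mixed below them. TPM, reads per base of exon as a share of all such values, was highest for *HSP90B1* with NC RNA at 769 TPM (95% interval 756 to 782). *CALR* followed at 472 TPM, *HSPA5* at 377 TPM and *PDIA4* at 221 TPM, each apart from its neighbours in counting error. *XBP1* stood at 85.7 TPM. *ATF6* (44.5 TPM), *HERPUD1* (41.3 TPM), *SDF2L1* (37.7 TPM) and *DNAJB9* (35.7 TPM) formed a run whose neighbours overlapped in their intervals, and *ERN1* was lowest at 6.96 TPM (6.19 to 7.81). *HSP90B1* thus lay at percentile 99.0 of the 12994 genes that averaged 1 CPM or more (the genes tested below), and *ERN1* at percentile 18.4.

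The order differed in the siRNA libraries. With siDAZAP1-1, *CALR* was first at 694 TPM (679 to 710), above *HSP90B1* at 638 TPM (627 to 650). With the longest transcript of each gene in place of all its exons, *CALR* and *HSP90B1* were no longer apart there, at 758 and 757 TPM, against 513 and 906 TPM with NC RNA. With siDAZAP1-2, *HSP90B1* was first at 680 TPM, and *HSPA5* (564 TPM, 552 to 576) and *CALR* (557 TPM, 543 to 572) overlapped. By longest transcript, *CALR* (605 TPM) lay above *HSPA5* (430 TPM) there. *SDF2L1* rose in rank from 8 with NC RNA to 6 with either siRNA, at 72.1 and 74.3 TPM. By longest transcript it went from rank 7 to 6, and with NC RNA *HERPUD1* (55.0 TPM), *SDF2L1* (36.5 TPM) and *ATF6* (35.6 TPM) then held ranks 6, 7 and 8. *ERN1* was last in all 3 libraries. Together the 10 genes took 31372, 32820 and 33240 reads, or 0.220%, 0.232% and 0.235% of all.

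**Figure D1:**
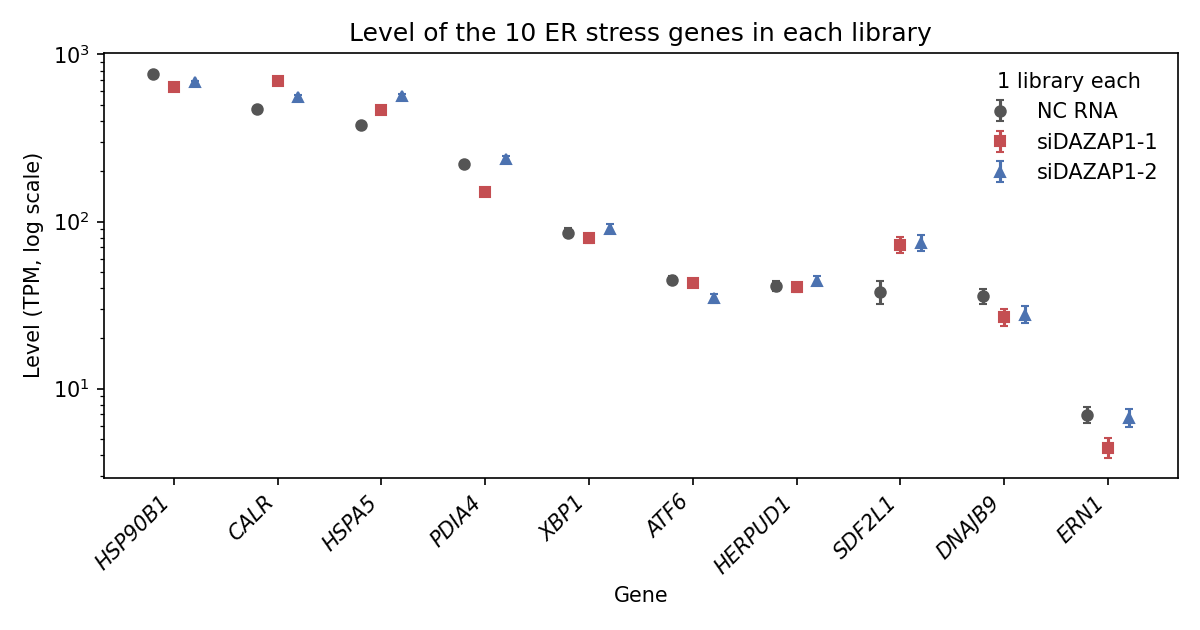
Level in TPM (log axis) of each of the 10 genes in the NC RNA, siDAZAP1-1 and siDAZAP1-2 libraries, 1 library each, with 95% counting intervals. *HSP90B1* (769 TPM) and *ERN1* (6.96 TPM) are the highest and lowest with NC RNA, and *SDF2L1* is higher in both siRNA libraries.

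The question of the comparisons was how these genes differ when *DAZAP1* is silenced, and each siRNA library was set against NC RNA by itself. Among the major ER chaperones, *HSPA5* was higher with either siRNA, *HSP90B1* slightly lower, and *CALR* and *PDIA4* differed mainly with siDAZAP1-1. Both comparisons share the NC RNA library, so an error in that library would move both ratios of a gene the same way. The siRNA libraries were therefore also compared with each other, which does not use it.

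*HSPA5* (ENSG00000044574) encodes BiP, the Hsp70 of the ER lumen, which holds the sensors inactive until unfolded proteins draw it away. It had 5690 reads with NC RNA, 7271 with siDAZAP1-1 and 8428 with siDAZAP1-2. The control library was lowest and siDAZAP1-2 highest. The level was 1.24-fold that of NC RNA with siDAZAP1-1 (log2 ratio 0.32, 95% interval 0.27 to 0.37) and 1.44-fold with siDAZAP1-2 (0.52, 0.47 to 0.57), short of 1.5-fold in both. Between the siRNAs, *HSPA5* was 1.15-fold higher with siDAZAP1-2 (log2 ratio 0.21, 0.16 to 0.25). With the dependence on GC content and exon length removed, this direct ratio was 0.13, outside its counting interval. Among the 4152 genes that averaged 1000 counts or more, the pair of log2 ratios of *HSPA5* was nearest to those of *SAP18* (0.33 and 0.52, Euclidean distance 0.0167), *TUBA4A* (0.33 and 0.51, distance 0.0203) and *ABCF3* (0.34 and 0.51, distance 0.0245), over 3 libraries.

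*HSP90B1* (ENSG00000166598) encodes GRP94, the Hsp90 of the ER. It had 13929 reads with NC RNA, 12031 with siDAZAP1-1 and 12207 with siDAZAP1-2, so the control library was the highest and the siRNA libraries were close to each other. The level was 1.19-fold lower with siDAZAP1-1 (log2 ratio -0.25, -0.28 to -0.21) and 1.18-fold lower with siDAZAP1-2 (-0.24, -0.27 to -0.20), and the direct ratio of the siRNAs was 0.01 (-0.02 to 0.05). Removing the dependence on GC content and exon length by loess (below called GC removal) brought the ratio with siDAZAP1-1 to -0.05 and left that with siDAZAP1-2 at -0.24. The direct ratio of the siRNAs then turned to -0.19, outside its counting interval. The gene overlaps *C12orf73* on the other strand, which had 167, 210 and 161 reads, and the use of strand in counting is not given in the sources used here. Its named pseudogenes *HSP90B2P* (4, 7 and 9 reads) and *HSP90B3P* (0, 0 and 3 reads) held few reads.

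As a ratio of reads within a library, which no scaling affects, *HSPA5* stood at 0.409 of *HSP90B1* with NC RNA, 0.604 with siDAZAP1-1 and 0.690 with siDAZAP1-2. The Hsp70 of the ER thus took a larger share relative to the Hsp90 of the ER in both siRNA libraries. Against *HSPA8*, the constitutive Hsp70 of the cytosol, *HSPA5* stood at 0.435, 0.453 and 0.478.

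*CALR* (ENSG00000179218) encodes calreticulin, a lectin chaperone that binds calcium and newly made glycoproteins. It had 4944 reads with NC RNA, 7562 with siDAZAP1-1 and 5781 with siDAZAP1-2, and the siDAZAP1-1 library was the high one. The level was 1.49-fold that of NC RNA with siDAZAP1-1 (log2 ratio 0.57, 0.52 to 0.63), just short of the 1.5-fold threshold, and 1.13-fold with siDAZAP1-2 (0.18, 0.13 to 0.24). Scaling by total count put the first ratio past the threshold at 0.63, and GC removal brought it down to 0.49. Between the siRNAs the log2 ratio was -0.39 (-0.44 to -0.35).

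*PDIA4* (ENSG00000155660) encodes ERp72, a disulfide isomerase. It had 2790 reads with NC RNA, 1987 with siDAZAP1-1 and 2964 with siDAZAP1-2, so siDAZAP1-1 stood apart as the low library. The level was 1.44-fold lower with siDAZAP1-1 (log2 ratio -0.53, -0.61 to -0.44), while with siDAZAP1-2 the interval included 0 (0.04, -0.03 to 0.12). After GC removal the first ratio was -0.60, past 1.5-fold, and by total count it was -0.48. The direct ratio of the siRNAs was 0.57 (0.49 to 0.65), the largest of the 10 genes in size, and past 1.5-fold at 0.64 after GC removal. Within the libraries, reads on *HSPA5* were 2.04, 3.66 and 2.84 times those on *PDIA4*.

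The co-chaperones of HSPA5 differed in opposite directions. *SDF2L1* was the only one of the 10 genes at least 1.5-fold higher with both siRNAs, and *DNAJB9* was lower with both, short of that size.

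*SDF2L1* (ENSG00000128228), whose product works with ER DnaJ proteins and BiP, had 160 reads with NC RNA, 318 with siDAZAP1-1 and 312 with siDAZAP1-2. In reads, the siRNA libraries lay close together and above the control library. The level was 1.92-fold that of NC RNA with siDAZAP1-1 (log2 ratio 0.94, 0.67 to 1.24) and 1.88-fold with siDAZAP1-2 (0.91, 0.64 to 1.20), and the direct ratio was -0.03 (-0.26 to 0.20). Both ratios rest on the same 160 control reads. In TPM it went from 37.7 to 72.1 and 74.3, or from percentile 59.0 of the tested genes to 78.3 and 77.7. Its GC content of 65.5% was at percentile 97.2, and after GC removal the ratios were 0.69 and 0.98. The direct ratio of the siRNAs was then 0.29, outside its counting interval.

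*DNAJB9* (ENSG00000128590) encodes ERdj4, a DnaJ protein that assists BiP and degradation. It had 391 reads with NC RNA, 304 with siDAZAP1-1 and 301 with siDAZAP1-2, and again the siRNA libraries were close to each other and the control stood apart, here as the high one. The log2 ratios were -0.40 (-0.62 to -0.18) and -0.42 (-0.64 to -0.20), or 1.32-fold and 1.34-fold lower. After GC removal they were -0.22 and -0.45. The direct ratio of the siRNAs then went from -0.02 (-0.26 to 0.21) to -0.23. From start to end, *DNAJB9* overlaps *PNPLA8* (1104, 821 and 1167 reads) and *THAP5* (654, 422 and 609 reads) on the other strand. Overlap of their exons was not examined, so how the use of strand bears on its reads is not known. Reads on *SDF2L1* were 0.409 of those on *DNAJB9* with NC RNA, 1.05 with siDAZAP1-1 and 1.04 with siDAZAP1-2.

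*HERPUD1* (ENSG00000051108), an ER membrane protein of the degradation machinery, had 821 reads with NC RNA, 834 with siDAZAP1-1 and 874 with siDAZAP1-2. These were close in all 3 libraries. The log2 ratios were -0.02 (-0.16 to 0.13) and 0.04 (-0.09 to 0.18), so no difference was detectable at this depth. By total count the first ratio turned to 0.04. Its promoter is the one with ERSE-II letters in forward orientation above.

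The regulators were near or below their control level. *XBP1* (ENSG00000100219) had 1001 reads with NC RNA, 966 with siDAZAP1-1 and 1046 with siDAZAP1-2, with log2 ratios of -0.09 (-0.22 to 0.04) and 0.02 (-0.11 to 0.14). Both intervals included 0, and the sign of both turned after GC removal (0.06 and -0.02). Counts per gene do not measure the splicing of *XBP1* mRNA by IRE1, so the active form was not analysed here.

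*ATF6* (ENSG00000118217), the sensor that becomes a transcription factor, had 1354 reads with NC RNA, 1354 with siDAZAP1-1 and 1050 with siDAZAP1-2. The siDAZAP1-2 library was the low one. The log2 ratio was -0.04 (-0.15 to 0.07) with siDAZAP1-1, which turned to 0.18 after GC removal, and -0.41 (-0.53 to -0.29) with siDAZAP1-2, or 1.33-fold lower. Between the siRNAs it was -0.37 (-0.49 to -0.26), and -0.59, past 1.5-fold, after GC removal.

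*ERN1* (ENSG00000178607), the gene of the kinase and endoribonuclease IRE1, had 292 reads with NC RNA, 193 with siDAZAP1-1 and 277 with siDAZAP1-2, and siDAZAP1-1 was the low library. The level was 1.55-fold lower with siDAZAP1-1 (log2 ratio -0.63, -0.91 to -0.37), the only ratio of the 10 genes past 1.5-fold downward, and the interval with siDAZAP1-2 included 0 (-0.12, -0.36 to 0.12). Scaling by total count moved the first ratio to -0.58, just short of 1.5-fold. Between the siRNAs the log2 ratio was 0.51 (0.24 to 0.79).

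**Figure D2:**
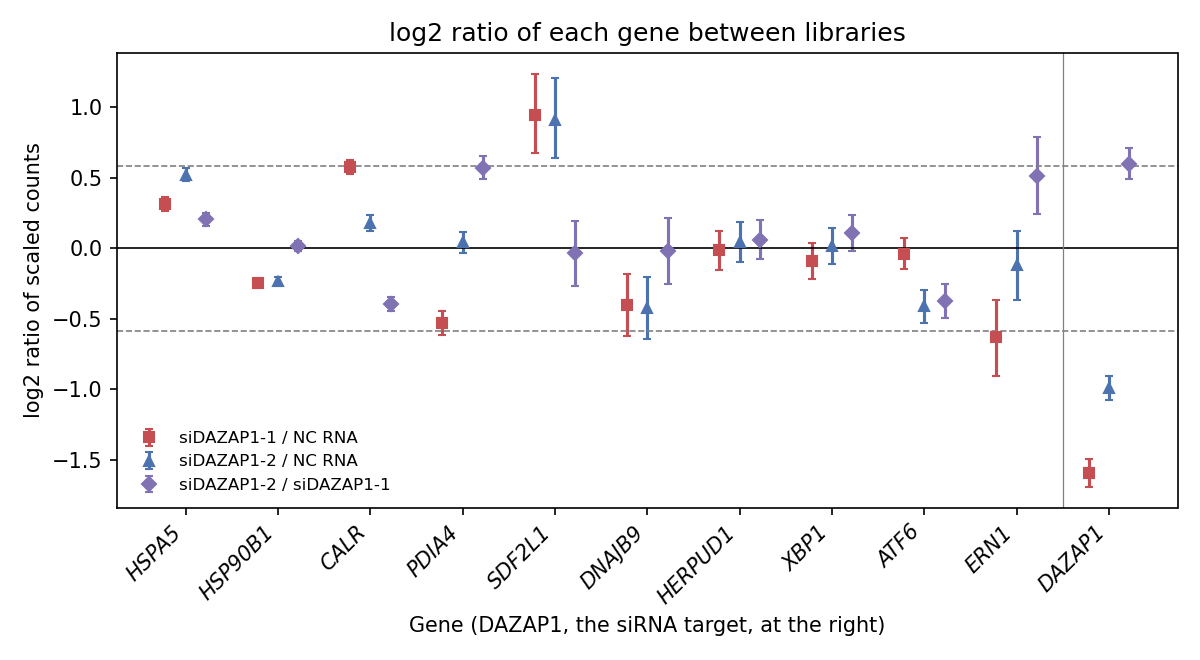
Log2 ratio of scaled counts for the 10 genes and *DAZAP1*, with 95% counting intervals, for siDAZAP1-1 over NC RNA, siDAZAP1-2 over NC RNA and siDAZAP1-2 over siDAZAP1-1. Dashed lines mark 1.5-fold, which *SDF2L1* passed with both siRNAs (0.94 and 0.91) and *ERN1* with siDAZAP1-1 (-0.63).

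Counted together, 1 of the 10 genes was at least 1.5-fold higher with siDAZAP1-1 (*SDF2L1*) and 1 was at least 1.5-fold lower (*ERN1*), where 7.10% and 8.73% of the 12994 tested genes passed in those directions. With siDAZAP1-2, 1 was higher (*SDF2L1*) and 0 were lower, against 8.86% and 10.7% of tested genes. With both siRNAs, 1 was higher and 0 were lower, against 3.61% and 2.66%. Between siDAZAP1-2 and siDAZAP1-1, 0 were higher and 0 were lower, against 8.50% and 9.64%. With 10 genes, these counts are near what the shares of all genes give, and they set the 10 apart in neither direction.

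The median log2 ratio of the 10 genes was -0.06 with siDAZAP1-1 and 0.03 with siDAZAP1-2, beside -0.0002 and -0.01 for all tested genes. After GC removal both signs of the 10 genes turned (0.02 and -0.002), beside 0.04 and 0.0035 for all genes. By counting interval, 3 of the 10 lay above 0 and 4 below 0 with siDAZAP1-1, and 3 above and 3 below with siDAZAP1-2. Of all tested genes, 28.2% had intervals above 0 and 29.4% below 0 with siDAZAP1-1, and 29.2% and 31.7% with siDAZAP1-2. Intervals are narrower for genes with more reads, so these counts depend on level as well as on size of difference. The counts for the 10 genes are near these shares. By gene, *HSPA5*, *CALR* and *SDF2L1* were on the higher side and *HSP90B1* (-0.05 with siDAZAP1-1 after GC removal) and *DNAJB9* on the lower side with either siRNA.

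Base composition differed in its relation to the ratios. Across 12821 genes, the correlation of the log2 ratio with GC content was 0.36 for siDAZAP1-1, -0.06 for siDAZAP1-2 and -0.40 for the direct comparison, where genes are not independent replicates and all points share the same libraries. Over 10 bins of GC content, the median log2 ratio with siDAZAP1-1 went from -0.38 in the lowest bin to 0.16 in the highest. *DNAJB9*, *HSP90B1*, *ATF6* and *XBP1* lay at GC percentiles 17.8, 21.0, 21.8 and 22.4, and their ratios with siDAZAP1-1 moved to -0.22, -0.05, 0.18 and 0.06 after GC removal. *HSPA5*, at percentile 41.5, kept 0.35 with siDAZAP1-1 and 0.48 with siDAZAP1-2.

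**Figure D3:**
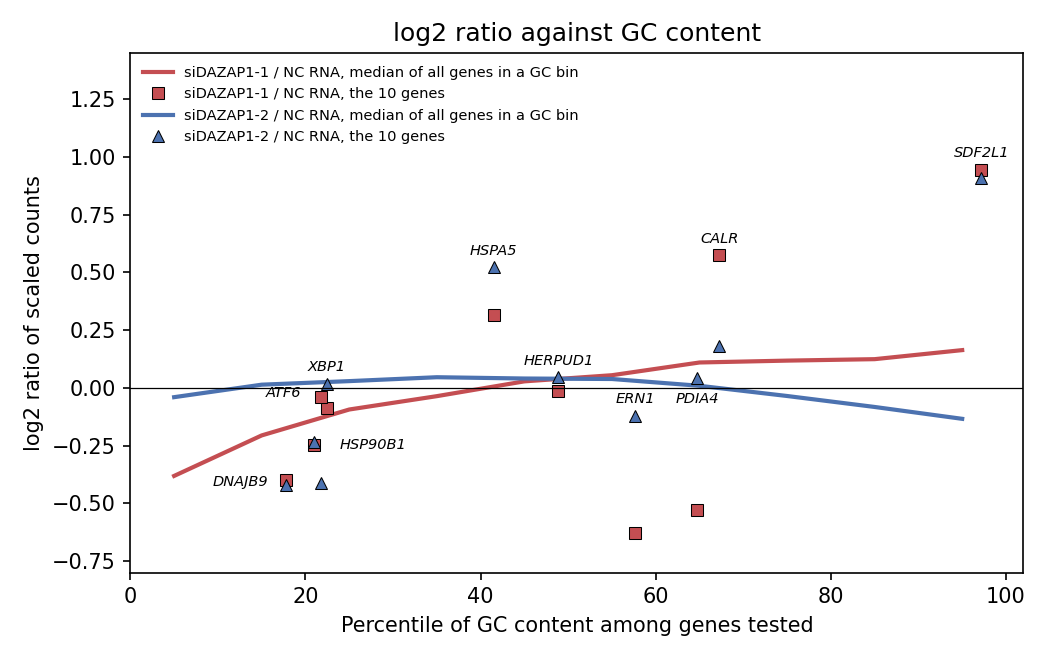
Log2 ratio to NC RNA against the percentile of GC content for the 10 genes (points) with siDAZAP1-1 and siDAZAP1-2, and the median of all genes in each of 10 GC bins (lines). The siDAZAP1-1 line climbs from -0.38 to 0.16, and *SDF2L1* lies far above both lines at percentile 97.2.

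The rest of the pathway was read from lists by role, with 110 other ER and UPR genes. Of these, 107 passed the filter, and *CREB3L1*, *DERL3* and *TXNDC5* did not. Their median log2 ratio was 0.04 with siDAZAP1-1 and 0.13 with siDAZAP1-2. With siDAZAP1-1, 6 were at least 1.5-fold higher and 7 lower, and with siDAZAP1-2, 9 were higher and 7 lower. With both siRNAs, 4 were higher (*GANAB*, *SRPRB*, *CHAC1* and *CEBPB*) and 2 lower (*ERO1B* and *HERPUD2*). These are 5.61% higher and 6.54% lower with siDAZAP1-1, against 7.10% and 8.73% of all tested genes, 8.41% and 6.54% with siDAZAP1-2, against 8.86% and 10.7%, and 3.74% and 1.87% with both, against 3.61% and 2.66%. Above 0 lay 58 of the 107 with siDAZAP1-1 and 67 with siDAZAP1-2, where 6491 and 6356 of all 12994 tested genes did. In the lists below, highest and lowest refer to the mean of both log2 ratios among genes that averaged 100 counts or more.

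Among the 16 ER chaperones and co-chaperones, the median log2 ratio was -0.01 with siDAZAP1-1, which turned to 0.13 after GC removal and 0.04 by total count, and 0.23 with siDAZAP1-2. *SDF2L1* had the highest mean of both ratios and *DNAJB9* the lowest. *CANX*, the membrane-bound relative of calreticulin, had 21588 reads with NC RNA, 18647 with siDAZAP1-1 and 17638 with siDAZAP1-2 (log2 ratios -0.25, or -0.05 after GC removal, and -0.34), and so lay on the other side of NC RNA from *CALR*. *HYOU1*, the large Hsp70-like chaperone GRP170, had 2154, 2128 and 2659 reads (-0.06 and 0.26).

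The 13 tested disulfide isomerases and oxidoreductases had medians of -0.10 with siDAZAP1-1, which turned to 0.13 after GC removal and to 0.03 with no filter, and -0.10 with siDAZAP1-2. *ERO1B*, an oxidase that recharges disulfide isomerases, fell from 558 reads with NC RNA to 284 with siDAZAP1-1 and 359 with siDAZAP1-2 (log2 ratios -1.01 and -0.68). After GC removal its ratios were -0.62 and -0.64. *P4HB*, the main disulfide isomerase, had the highest mean, with 4710, 6414 and 5621 reads (0.41 and 0.21). *PDIA4* and *P4HB*, both disulfide isomerases, thus lay on opposite sides of NC RNA with siDAZAP1-1. Of 7 prolyl isomerases, 7 lay above 0 with siDAZAP1-1 and 3 with siDAZAP1-2, where 6491 and 6356 of 12994 tested genes did. After GC removal these counts were 6 and 3, where 7001 and 6447 of 12821 genes lay above 0. *PPIB*, cyclophilin B, was the highest (916, 1322 and 1343 reads, log2 ratios 0.49 and 0.51) and *FKBP14* the lowest (481, 542 and 351 reads, 0.13 and -0.50). After GC removal *FKBP14* was at 0.44 with siDAZAP1-1 and -0.48 with siDAZAP1-2, and its direct ratio went from -0.63 to -0.91.

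In glycan quality control, 8 genes had medians of 0.17 and -0.17. *GANAB*, the catalytic subunit of glucosidase II, rose from 4810 reads with NC RNA to 9180 with siDAZAP1-1 and 8045 with siDAZAP1-2 (log2 ratios 0.89 and 0.70). *LMAN1*, a cargo receptor for glycoproteins, was the lowest of the list (4685, 2632 and 3392 reads, -0.87 and -0.51). Of 22 tested genes of ER-associated degradation, with medians of 0.01 and 0.09, *HERPUD2*, the relative of *HERPUD1*, was lower with both siRNAs (991, 649 and 639 reads, -0.65 and -0.68). *UFD1*, which helps extract substrates from the membrane, had the highest mean (677, 868 and 1076 reads, 0.32 and 0.62). *HERPUD1* thus held its level where *HERPUD2* fell.

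Of 11 tested sensors and their processing genes, 1 lay above 0 with siDAZAP1-1 and 6 with siDAZAP1-2 (6491 and 6356 of 12994 tested genes). After GC removal, 5 did with siDAZAP1-1 and 5 with siDAZAP1-2, where 7001 and 6447 of 12821 genes did. Before it, the genes below 0 with siDAZAP1-1 included *ATF6*, *ATF6B*, *EIF2AK3* and *XBP1*, whose counting intervals included 0. *EIF2AK3*, the gene of PERK, had 295, 287 and 343 reads (log2 ratios -0.08 and 0.17), and *ATF6B*, the relative of *ATF6*, had 984, 929 and 1134 (-0.12 and 0.16). The highest was *CREB3*, a membrane-bound factor related to ATF6 (407, 610 and 669 reads, 0.54 and 0.67). The lowest by mean was *MBTPS1*, the first protease that cuts ATF6 (1678, 1538 and 981 reads, -0.16 and -0.82), while *ERN1* was lower than it with siDAZAP1-1 (-0.63). *ATF6* and *MBTPS1* were thus both below NC RNA by more than counting error with siDAZAP1-2. The list did not share this, as 6 of the 11 lay above 0 there. Among these was *MBTPS2*, the second such protease, chosen after its values were seen, with an interval that included 0.

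The PERK arm and ATF4 targets, 13 genes, had a median of 0.19 with siDAZAP1-1 (0.31 after GC removal) and 0.33 with siDAZAP1-2. The latter was the highest of the ER and UPR lists, except among genes averaging 5 CPM or more, where it was 0.30 and that of ER protein import 0.31. *ATF4* itself had 2632, 2922 and 3178 reads (log2 ratios 0.11 and 0.23), with the first at -0.003 after GC removal. *DDIT3*, the gene of the factor CHOP, had 85, 76 and 140 reads (-0.19 and 0.66). *CEBPB*, a partner of CHOP and ATF4, rose from 268 to 504 and 526 reads (0.87 and 0.92). *CHAC1*, a glutathione-degrading enzyme, had 25, 42 and 62 reads (0.67 and 1.20), and its interval with siDAZAP1-1, -0.04 to 1.49, included 0. *PSAT1*, of serine synthesis, was the lowest of the list (1453, 1677 and 929 reads, 0.17 and -0.69). Of the 13 genes, 10 lay above 0 with siDAZAP1-1 and 11 with siDAZAP1-2, where 6491 and 6356 of 12994 tested genes did. After GC removal these counts were 9 and 11, where 7001 and 6447 of 12821 genes lay above 0.

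For entry into the ER, 16 genes had medians of -0.01, which turned to 0.09 after GC removal and 0.04 by total count, and 0.29. *SRPRB*, a subunit of the receptor for the signal recognition particle, rose from 538 reads to 840 and 1074 (log2 ratios 0.60 and 0.95). *TRAM1*, a protein of the translocation channel, had 1702, 1510 and 774 reads (-0.21 and -1.18), with the first at 0.10 after GC removal. For exit in COPII vesicles, 11 genes had medians of -0.04, which turned to 0.01 by total count, and 0.07. By mean of both ratios *SEC13* was highest (1033, 1190 and 1498 reads, 0.17 and 0.49) and *SEC24A* lowest (1639, 1249 and 1160 reads, -0.43 and -0.54). *SEC23A*, chosen after its values were seen, was lower than *SEC24A* with siDAZAP1-1 (1832, 1214 and 1991 reads, -0.63 and 0.07). After GC removal these ratios with siDAZAP1-1 were -0.24 for *SEC23A* and -0.12 for *SEC24A*, short of 1.5-fold.

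For comparison, 16 heat shock chaperones outside the ER were read, of the cytosol and, for *HSPD1* and *HSPE1*, of mitochondria. Their medians were 0.08 with siDAZAP1-1 (0.17 after GC removal) and 0.37 with siDAZAP1-2. With siDAZAP1-1, 1 was at least 1.5-fold higher and 0 lower, against 7.10% and 8.73% of tested genes. With siDAZAP1-2, 3 were higher and 1 lower, against 8.86% and 10.7%. With both siRNAs, 0 were higher and 0 lower, against 3.61% and 2.66%. After GC removal *DNAJA1* was 1.5-fold higher with both (0.67 and 1.07). *DNAJA1*, a cytosolic DnaJ protein, had the highest mean (1323, 1965 and 2948 reads, log2 ratios 0.53 and 1.11), and *BAG3*, an Hsp70 co-chaperone, the lowest (1574, 1686 and 999 reads, 0.06 and -0.70). The difference between the 10 genes and this list was not tested.

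**Figure D4:**
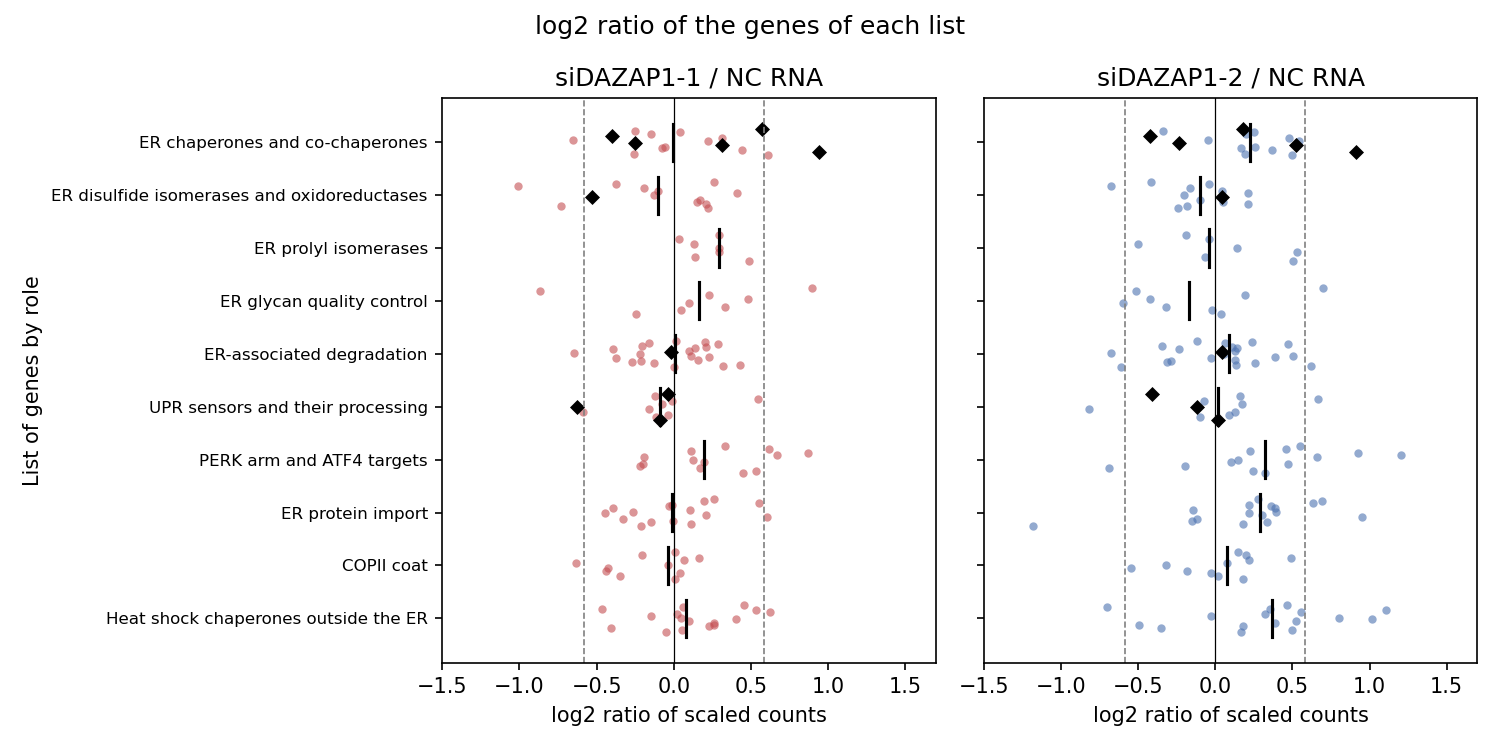
Log2 ratio to NC RNA of every tested gene of each list by role, for siDAZAP1-1 (left) and siDAZAP1-2 (right), with the 10 genes as black diamonds, the list median as a bar and 1.5-fold as dashed lines. Each list spreads to both sides of 0 with siDAZAP1-2, and *SDF2L1* is the black diamond farthest to the right in both panels.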

How the data were processed

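The authors deposited raw read counts per Ensembl gene, as whole numbers without normalization, for 3 libraries. The submitters' processing notes name TopHat2, HTSeq and the builds hg19 and GRCh37. Their roles and versions, the annotation release and the use of strand are not given in the sources used here. Names and exon lengths came from GENCODE release 29 on GRCh38, which matched 33299 of 34908 identifiers, and so lengths are approximate. GC content was that of each gene's longest transcript. The 12994 genes averaging 1 CPM or more were scaled by TMM in edgeR 4.0.16 (R 4.3.3), with a prior count of 2. Intervals came from SciPy 1.17.1 under Python 3.11.15 with NumPy 2.4.6 and pandas 2.3.3, and plots from Matplotlib 3.10.9. A gene counted as called at 1.5-fold. The procedures were tried on simulated data with counting error alone, so that check says nothing of variation between replicate libraries. The chi-square per gene of each pair of libraries was 30.7 to 37.7, far above sampling noise, so none was a copy of another.

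The 10 genes and the lists were chosen with earlier results of these data known. The rule for named genes took *DAZAP1*, the 10 genes, in each list those at least 1.5-fold from NC RNA in 1 direction with both siRNAs and those with the highest and lowest mean of both log2 ratios (100 counts or more on average), *EIF2AK3*, *ATF6B*, *CANX*, *HYOU1*, *ATF4* and *DDIT3* whatever their values, and the 3 genes averaging 1000 counts or more that lay nearest to *HSPA5*. Alternatives were DESeq2 1.42.0 size factors, total count, prior counts of 0.25 and 10, filters of 0 and 5 CPM, 2-fold, removal of the trend with GC and length by loess (GC removal, span 0.5), longest transcript length, 1 mismatch in motifs, and tests of both siRNA libraries as 1 group with edgeR's quasi-likelihood method and with DESeq2. Protein sequences, splicing and *PECAM1* were not analysed here.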

Additional observations from a re-analysis of the deposited data

Results flagged for a closer look

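In 12 of the genes named with ratios or as markers, the ratios to NC RNA had opposite signs with the siRNAs while the counting interval of the direct ratio, siDAZAP1-2 over siDAZAP1-1, did not include 0. With 1 library each, none of these differences was tested. Among the 10 genes only *PDIA4* was of this kind, at -0.53 with siDAZAP1-1 and 0.04 with siDAZAP1-2, a direct log2 ratio of 0.57 (0.49 to 0.65). The others, with their direct log2 ratios, were *DDIT3* at 0.86 (0.46 to 1.30), *HYOU1* at 0.31 (0.23 to 0.40), *ATF6B* at 0.28 (0.15 to 0.41), *EIF2AK3* at 0.25 (0.02 to 0.48) and *SEC23A* at 0.71 (0.60 to 0.81), which were higher with siDAZAP1-2. On the lower side with siDAZAP1-2 were *PSAT1* at -0.86 (-0.98 to -0.74), *BAG3* at -0.76 (-0.88 to -0.65), *FKBP14* at -0.63 (-0.83 to -0.44) and the squamous markers *DSG3* at -0.53 (-0.63 to -0.42), *KRT14* at -0.46 (-0.59 to -0.34) and *KRT5* at -0.10 (-0.14 to -0.06). *SEC23A* was chosen after its values were seen. Some of these signs lie within counting error. Squamous markers aside, the interval of the ratio to NC RNA included 0 for *HYOU1*, *ATF6B*, *DDIT3*, *FKBP14* and *BAG3* with siDAZAP1-1. It also did for *PDIA4* and *SEC23A* with siDAZAP1-2, and for *EIF2AK3* with both siRNAs. Some signs also depend on the scaling. *ATF6* had opposite signs by total count (log2 ratios 0.01 with siDAZAP1-1 and -0.35 with siDAZAP1-2, -0.37 directly) and after GC removal (0.18 and -0.41, -0.59 directly). After GC removal so did *TRAM1* (0.10 and -1.17, -1.26 directly) and *ATF4* (-0.003 and 0.25, 0.25 directly). *EIF2AK3* (0.01 and 0.15), *BAG3* (-0.05 and -0.67) and *KRT5* (-0.05 and -0.01) no longer had opposite signs after GC removal.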

How the results depend on the processing

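No paired analysis was possible because a single library stands for each condition. DESeq2 size factors and prior counts of 0.25 and 10 left the 10 genes' ratios inside their counting intervals (30 of 30, 20 of 20 and 20 of 20 values). Total count scaling kept 25 of 30 inside, with 2 changes of sign (*ATF6* to 0.01 and *HERPUD1* to 0.04, both with siDAZAP1-1), and GC removal 20 of 30, with 6 changes of sign, none in a ratio past 1.5-fold. No scaling moved the median of all genes by more than 0.06. The *DAZAP1* ratios stayed inside their intervals with DESeq2 size factors, by total count and after GC removal, and prior counts were not varied for them. The median of the 10 genes ranged from -0.06 to 0.02 with siDAZAP1-1 and from -0.002 to 0.09 with siDAZAP1-2, with both signs turned after GC removal. The median of the other ER and UPR genes ranged from 0.03 to 0.09 and from 0.13 to 0.19, above 0 in each setting. By total count, 6 of these genes were at least 1.5-fold higher with both siRNAs in place of 4. With a prior count of 10, after GC removal or at 5 CPM or more, 3 were. With no filter, 3 were lower with both in place of 2.

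By total count, 2 of the 10 genes were at least 1.5-fold higher with siDAZAP1-1 (*SDF2L1* and *CALR*) and 0 lower, in place of 1 and 1. After GC removal, 2 were lower with siDAZAP1-1 (*ERN1* and *PDIA4*) in place of 1, and between the siRNAs 1 was higher (*PDIA4*, 0.64) and 1 lower (*ATF6*, -0.59) in place of 0 and 0. Of all genes, 720 were then lower with siDAZAP1-1 in place of 1134, and the share of calls that were higher was 55.8% in place of 44.8%. Total count scaling moved it too, to 53.7% with siDAZAP1-1 and to 54.1% in place of 45.4% with siDAZAP1-2. The cause of these moves was not tested. *CHAC1* fell short of 1.5-fold with siDAZAP1-1 at a prior count of 10 (0.54) and after GC removal (0.48), *CREB3* (0.59 by total count) and *DNAJA1* (0.67 after GC removal) passed it there, and *TRAM1*, *ATF4*, *BAG3* and *EIF2AK3* changed sign with siDAZAP1-1 after GC removal (0.10, -0.003, -0.05 and 0.01).

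At 2-fold, which is stricter, 0 of the 10 genes were higher with siDAZAP1-1, siDAZAP1-2 or both and 0 were lower with siDAZAP1-1, and 0 of the other ER and UPR genes were higher or lower with both, in place of 4 and 2. Of all genes, 205 were then higher and 244 lower with siDAZAP1-1 (922 and 1134 at 1.5-fold), 299 and 420 with siDAZAP1-2 (1151 and 1384), 93 and 42 with both (469 and 346), and 257 and 361 between the siRNAs (1105 and 1252). With no filter, which tests 20974 genes, these counts were 2163 and 3600, 2640 and 3742, 928 and 1897, and 2626 and 2521. Among the 11060 genes averaging 5 CPM or more, 594 were higher with siDAZAP1-1, and 299 were higher and 211 lower with both.

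With both siRNA libraries as 1 group against NC RNA, edgeR's quasi-likelihood test called 0 genes higher and 0 lower after Benjamini-Hochberg adjustment, with 587 at an unadjusted p under 0.05, and DESeq2 called 2 higher and 3 lower. Of the 10 genes 0 were called by either tool. *DAZAP1* itself, lower in both siRNA libraries, was called by neither (log2 ratio -1.26 and adjusted p 0.896 in edgeR, -1.25 and 0.49 in DESeq2). The group rests on different molecules, and NC RNA on 1 library. Depth limits the low genes most: the interval of *SDF2L1*, with 160 control reads, spans 0.67 to 1.24, and that of *HSP90B1*, with 13929, spans -0.28 to -0.21.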

Other observations

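Taken by promoter letters rather than by name, 44 genes (0.161%) held an exact ERSE or ERSE-II, a group formed after the values were seen. Of these, 30 were among the tested genes, with a median log2 ratio of -0.0002 with siDAZAP1-1 and -0.09 with siDAZAP1-2, and 15 and 13 of them lay above 0, where 6491 and 6356 of the 12994 tested genes did. With both siRNAs, 2 were at least 1.5-fold higher and 1 lower, against 3.61% and 2.66% of tested genes. Within the 10 genes, the 6 with these letters had medians of 0.15 and 0.11, and the 4 without them had medians of -0.46 and -0.27. Of the 6, 3 lay above 0 with siDAZAP1-1 and 5 with siDAZAP1-2, and of the 4, 0 and 1 did. The 24 tested genes with the letters outside the 10 had medians of -0.0002 and -0.15. No test was made on these groups.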
